A study of Mus musculus with 16 samples.

Results

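The 5 genes described here, Cdkn2a, Cdkn2b, Cdkn1a, Cdkn1b and Cdkn1c, encode inhibitors of cyclin-dependent kinases. They were examined through 4 windows of the mouse genome build mm9, fixed by position, in which every deposited peak or island of 3 histone methylations was collected. Cdkn2a and Cdkn2b share the window chr4:88905000-88970000. The window of Cdkn1a was chr17:29215000-29250000, that of Cdkn1b chr6:134860000-134885000 and that of Cdkn1c chr7:150630000-150660000. Of 610361 peaks and islands in the 16 lists, 88 touched a window, and all 88 are accounted for below.

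Cyclin-dependent kinases drive a cell through its division cycle, and these inhibitors hold them back. Cdkn2a and Cdkn2b belong to the INK4 family, which binds the kinases that pair with D-type cyclins; Cdkn2a also encodes, from a separate upstream start and in another reading frame, the protein ARF, which stabilises p53. Cdkn1a (p21), Cdkn1b (p27) and Cdkn1c (p57) form the CIP/KIP family, which binds complexes of cyclin and kinase. In blood stem cells p57 and p27 are known for holding cells in quiescence, p21 is a p53 target, and the Cdkn2a locus is a classical target of Polycomb repression. H3K4me3 is found at active or poised promoters, H3K27me3 is deposited by Polycomb complexes over silenced genes, and H3K36me3 lies over transcribed gene bodies.

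The cells were hematopoietic stem cells from the bone marrow of C57BL/6 mice, isolated by a gate written SP-KSL-CD150+, which joins efflux of a dye with markers on the cell surface. The mice were wild type, with no treatment given in the labels, and were 4 months old (young) or 24 months old (old). Chromatin immunoprecipitation and sequencing gave 2 young and 2 old H3K4me3 libraries (replicates 7 and 8), 3 and 3 H3K27me3 libraries (replicates 1 to 3) and 3 and 3 H3K36me3 libraries (replicates 4 to 6). Each library is described in the labels as technical replication of a biological replicate with a number, and the labels do not say how many animals were pooled. The p-values therefore measure the spread between libraries only, which may be technical. Sample titles carry a further number from 16 to 21 that the labels do not explain. The sorted cell type was not checked against its markers here, because no mm9 annotation was used.

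Lists differed in size. They covered 26.9 to 32.5 Mb for H3K4me3, 123 to 179 Mb for H3K27me3 and 5.90 to 138 Mb for H3K36me3, and the read depth behind them is unknown, so no interval for counting error is given. A pair of libraries with title number 16 stood apart. Another with that number, old H3K36me3 replicate 4, covered 68.5 Mb, with 93.4% of this under other H3K36me3 lists. Young H3K27me3 replicate 1 had 10.3% of its covered length under an island of any of the other 5 H3K27me3 lists, where those 5 lists had 70.6 to 86.2%. Young H3K36me3 replicate 4 was the shortest H3K36me3 list, at 5.90 Mb against 41.6 to 138 Mb. Differences between ages that rest on these young libraries are given with and without them.

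The 4 windows differed in which marks they carried. The counts given next add up all libraries of a mark, so the same place can count more than once, and the windows differ in length. Islands of H3K27me3 numbered 24 in the shared Cdkn2a and Cdkn2b window, 8 in the Cdkn1c window, 2 in the Cdkn1a window and 0 in the Cdkn1b window. Merged across libraries where they overlapped or abutted, they made 2 regions at Cdkn2a and Cdkn2b, 2 at Cdkn1c and 1 at Cdkn1a. Peaks of H3K4me3 were present in every window, with 8 at Cdkn2a and Cdkn2b, 9 at Cdkn1a, 18 at Cdkn1b and 14 at Cdkn1c. H3K36me3 was called in the Cdkn1a window alone, with 5 peaks. For scale, each mark was measured in tiles of the same length across the genome, keeping tiles covered in at least 2 libraries. The mean H3K27me3 length of the Cdkn2a and Cdkn2b window, 45968 bp, stood at the 99.6th percentile of such tiles, and the mean H3K4me3 length of the Cdkn1b window, 10570 bp, at the 99.9th.

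Covered length was compared between ages in the 12 combinations of window and mark, and none passed a test. The exact two-sided permutation test cannot go below p = 0.333 with 2 against 2 libraries or 0.1 with 3 against 3, and every Benjamini-Hochberg adjusted p over the 12 tests was 1. A miss in a design of this size does not show that the ages were alike.

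**Figure D1:**
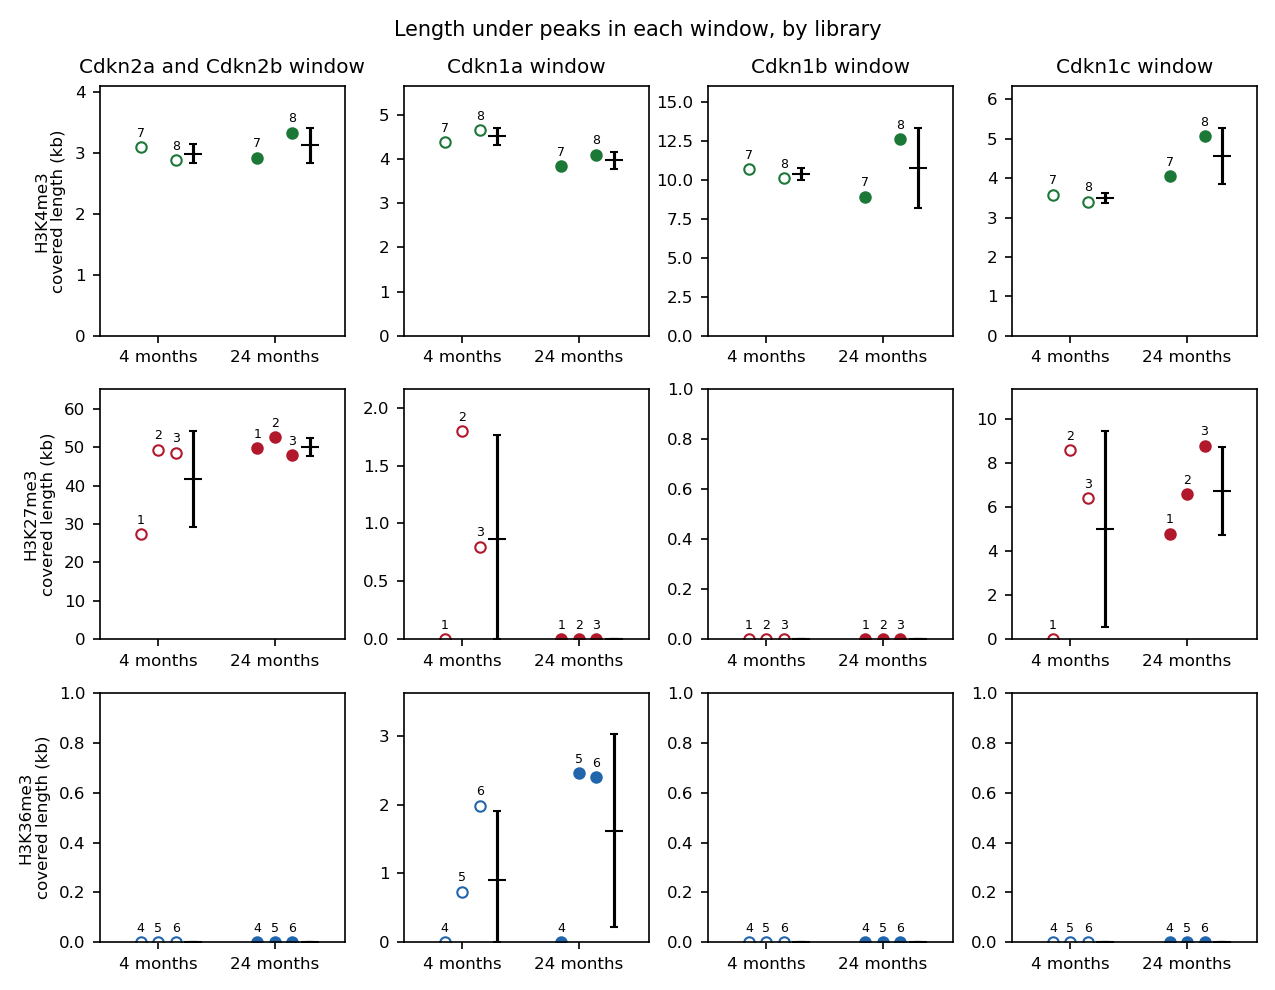
Length under peaks in kb (vertical axes, each starting at 0) for each library in the 4 windows, with 4 months as open and 24 months as filled circles, the replicate number above each point, and the mean with the SD (drawn no lower than 0) in black. Young H3K27me3 replicate 1 lies at 27.4 kb in the Cdkn2a and Cdkn2b window, below the other 5 libraries at 48.0 to 52.6 kb.

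Cdkn2a and Cdkn2b lie next to each other on the minus strand, with Mtap and Dmrta1 as the flanking protein-coding genes in RefSeq's annotation. RefSeq promoters (build GRCm38.p6, 250 bases before to 50 after a start) are shown because both H3K4me3 and H3K27me3 were called in this window. GRCm38.p6 positions are not comparable with the mm9 positions of the peaks, and no peak was assigned to a start. The searched motif was CG, which reads the same on both strands, and each CG is in capitals. The upstream start of Cdkn2a (chr4:89294570-89294869), the downstream start of Cdkn2a (chr4:89282143-89282442) and Cdkn2b (chr4:89310983-89311282) read, 5′ to 3′ on the minus strand:
Cdkn2a upstream start: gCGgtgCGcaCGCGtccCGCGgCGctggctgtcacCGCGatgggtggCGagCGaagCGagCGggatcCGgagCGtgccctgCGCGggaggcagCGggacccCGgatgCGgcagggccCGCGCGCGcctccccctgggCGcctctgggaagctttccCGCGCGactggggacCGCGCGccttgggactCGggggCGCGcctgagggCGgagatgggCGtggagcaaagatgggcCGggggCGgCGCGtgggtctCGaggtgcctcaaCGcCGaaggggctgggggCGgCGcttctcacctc
Cdkn2a downstream start: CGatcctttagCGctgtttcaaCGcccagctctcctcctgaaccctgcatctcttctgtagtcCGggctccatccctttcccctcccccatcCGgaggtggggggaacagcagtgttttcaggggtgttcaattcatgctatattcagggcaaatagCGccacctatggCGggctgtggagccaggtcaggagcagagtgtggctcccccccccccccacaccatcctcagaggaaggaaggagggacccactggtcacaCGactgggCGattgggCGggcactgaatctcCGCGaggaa
Cdkn2b: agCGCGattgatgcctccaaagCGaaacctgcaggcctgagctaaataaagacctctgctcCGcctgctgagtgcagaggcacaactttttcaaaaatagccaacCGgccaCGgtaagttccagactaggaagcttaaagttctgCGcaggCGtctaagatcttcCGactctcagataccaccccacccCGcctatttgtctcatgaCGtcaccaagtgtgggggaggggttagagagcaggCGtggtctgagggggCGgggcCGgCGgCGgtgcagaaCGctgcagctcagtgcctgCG
The upstream Cdkn2a promoter holds 45 CGs, a number reached by 1.93% of the 32851 mouse promoters in the table, whose median is 7. The downstream Cdkn2a promoter holds 12, reached by 39.6%, and that of Cdkn2b holds 18, reached by 29.7%.

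H3K27me3 lay across most of the Cdkn2a and Cdkn2b window at both ages. Young replicates 1, 2 and 3 had 27.4, 49.4 and 48.6 kb of the window under islands, and old replicates 1, 2 and 3 had 49.8, 52.6 and 48.0 kb. Old libraries 1 and 2 were above all young libraries, old replicate 3 lay between young replicates, and the ages overlapped. The young mean was 41801 ± 12478 bp and the old mean 50134 ± 2318 bp (± SD over 3 libraries), a difference of 8334 bp with an exact two-sided permutation p of 0.4. Without young replicate 1 the difference was 1133 bp. Within title number 18 it was 3200 bp and within title number 20 it was -600 bp.

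These islands formed a domain of 52.6 kb, at chr4:88910201-88962800, that all 6 libraries held in part. Young replicate 2 covered it with 1 island of 48.4 kb, while young replicate 3 used 4 islands (47.8 kb), old replicate 1 used 3 (48.6 kb) and old replicates 2 and 3 used 2 each (51.8 and 47.2 kb). The highest-scoring island of the domain stood between the 99.0th and 99.9th percentile of scores within each of these 5 lists. The segments shared by these 5 libraries added up to 41.6 kb of the window, of which the longest was 27.4 kb (chr4:88915601-88943000) and the next 11.4 kb (chr4:88945001-88956400). Young replicate 1 had 7 shorter islands in the domain, with the highest at the 86.8th percentile of its list. All 27.4 kb of these lay under islands of the other libraries, in contrast to 10.3% of its list as a whole. The 6 libraries together shared 24.2 kb in 7 segments. Some islands at the lower edge of the window, in a region at chr4:88897801-88906200, were held by every H3K27me3 library except young replicate 1.

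**Figure D2:**
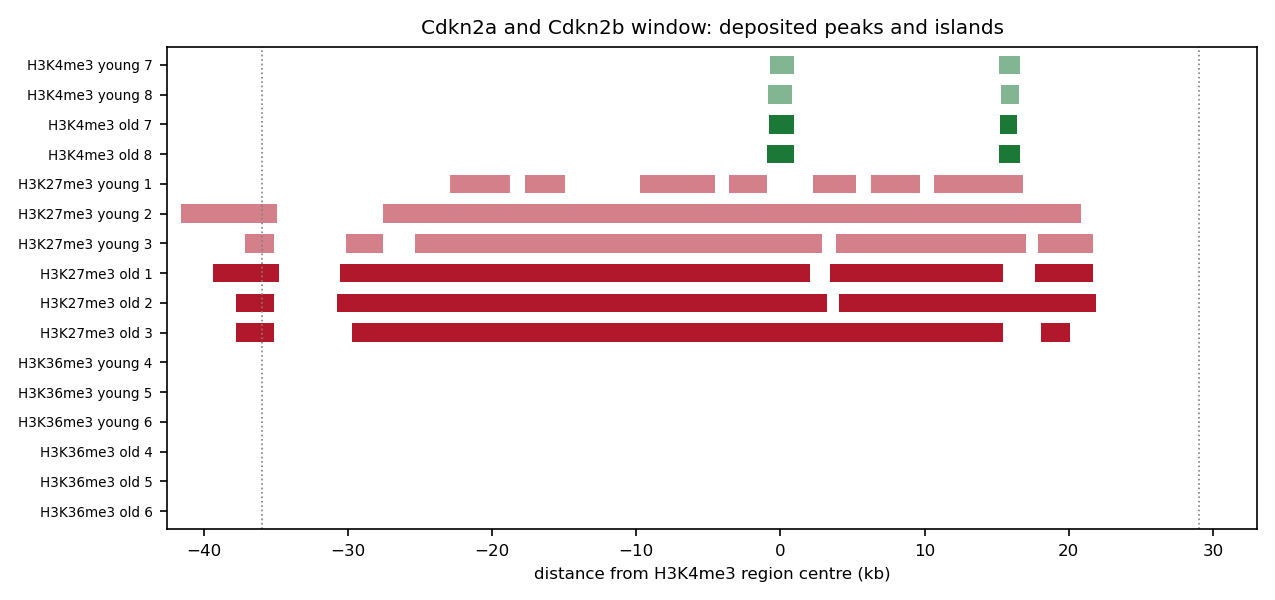
Deposited peaks and islands of the 16 lists (rows, 4-month libraries in lighter colour) in the Cdkn2a and Cdkn2b window, by distance in kb from the centre of the lower-coordinate H3K4me3 region, with dotted lines at the window's bounds. H3K27me3 islands cover the lower H3K4me3 region in 5 libraries and reach the upper one in all 6, ending within it in old replicates 1 and 3, and the H3K36me3 rows are empty.

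Inside the H3K27me3 domain, all 4 H3K4me3 libraries held 2 regions, 14.2 kb apart. The first, at chr4:88939996-88941883, was 1637 and 1680 bp wide in young replicates 7 and 8 and 1737 and 1876 bp in old replicates 7 and 8. Both old values were above both young ones, and the log2 change in covered length was 0.11 (SE 0.12, limma adjusted p = 0.983). The second, at chr4:88956079-88957592, was 1462 and 1202 bp wide in young and 1188 and 1460 bp in old libraries, which overlapped, with a log2 change of -0.01 (SE 0.19, limma adjusted p = 1.000). Over the whole window, young libraries had 3099 and 2882 bp of H3K4me3 and old libraries 2925 and 3336 bp. The difference of 140 bp had an exact two-sided permutation p of 0.667. With only peaks at or above the median score of their list it was 1472 bp (exact two-sided permutation p = 0.333, the smallest possible), because the second region then remained in old lists alone.

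The pair of H3K4me3 regions differed in the peak score, a value the authors deposited without a unit and that mostly stops at 3100. The first region scored 3100 in all 4 libraries, as did 60.4% of the 14489 H3K4me3 regions that all 4 libraries held (at 3100 or above). The second scored 1967.92 and 1299.85 in young and 3100 in both old libraries. Scores below 3100 in both young and at 3100 or above in both old libraries occurred in 0.801% of those regions. The 60.4% at 3100 or above in all 4 libraries could not show this order. Scores may not be on one scale across lists, so this order is a description that was picked after its values were seen.

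Both H3K4me3 regions were overlapped by H3K27me3 at both ages. The first lay wholly under islands in 5 libraries, and 5 bp of it did in young replicate 1. The second lay wholly under islands in all 3 young libraries and in old replicate 2, whereas 322 bp of it (21.3%) did in old replicates 1 and 3, whose islands ended at the same position. Taking each H3K4me3 library with each H3K27me3 library of the same age, a median of 2882 bp of H3K4me3 lay under H3K27me3 in young pairs (range 1202 to 3099, 6 pairs) and 2144 bp in old pairs (range 1990 to 3336, 6 pairs). Without young H3K27me3 replicate 1 the young median was 2990.5 bp. With only peaks at or above the median score of their list, the old minus young difference turned from -738 to 507 bp. The lists come from pooled cells, so both marks on the same chromosome copy and each mark in different cells cannot be told apart.

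Cdkn1a lies between Srsf3 and Rab44 in RefSeq's annotation. Its promoters are printed because the window's main H3K4me3 region was overlapped by H3K27me3 in some libraries, and because its starts differ in CG content. The upstream start (chr17:29090729-29091028) and the downstream start (chr17:29093519-29093818), GRCm38.p6, plus strand, with CG in capitals, read 5′ to 3′:
Cdkn1a upstream start: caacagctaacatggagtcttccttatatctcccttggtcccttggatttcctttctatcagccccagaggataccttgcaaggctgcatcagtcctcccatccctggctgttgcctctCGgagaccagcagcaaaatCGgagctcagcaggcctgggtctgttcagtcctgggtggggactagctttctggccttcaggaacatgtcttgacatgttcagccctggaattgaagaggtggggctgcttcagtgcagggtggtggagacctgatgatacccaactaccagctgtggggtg
Cdkn1a downstream start: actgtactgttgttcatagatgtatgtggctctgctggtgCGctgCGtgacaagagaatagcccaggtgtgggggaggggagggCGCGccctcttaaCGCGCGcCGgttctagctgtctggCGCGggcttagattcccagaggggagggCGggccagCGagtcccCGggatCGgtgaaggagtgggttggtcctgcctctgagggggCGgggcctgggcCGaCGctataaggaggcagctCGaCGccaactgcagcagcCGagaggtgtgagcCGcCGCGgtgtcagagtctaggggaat
The upstream promoter holds 2 CGs, a number reached by 85.9% of promoters, and the downstream promoter holds 23, reached by 21.5%.

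The main H3K4me3 region of the Cdkn1a window, at chr17:29230106-29233141, was 2830 and 2470 bp wide in young replicates 7 and 8 and 2627 and 2732 bp in old replicates 7 and 8. All 4 peaks scored 3100, the ages overlapped, and the log2 change was 0.02 (SE 0.10, limma adjusted p = 1.000). Another region, at chr17:29214664-29216555 on the window's lower edge, was 1774 and 1762 bp wide in young and 1448 and 1708 bp in old libraries, both old values being lower (log2 change -0.15, SE 0.14, limma adjusted p = 0.979). The third, of 671 bp, was held by young replicate 8 only.

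Summed over the Cdkn1a window, H3K4me3 covered 4386 and 4657 bp in young and 3836 and 4104 bp in old libraries. Both old values lay below both young values, a mean difference of -551.5 bp with the smallest exact two-sided permutation p that 2 against 2 libraries allow, 0.333. The same order was found in 13.4% of genome tiles of this length that at least 2 H3K4me3 libraries covered. Within title number 18, replicate 7 of each age, the difference was -550 bp. With only peaks at or above the median score of their list it was -42.5 bp and the order was lost (exact two-sided permutation p = 1). That median was 3100 in young replicates 7 and 8 and old replicate 7, but 2640.43 in old replicate 8. The cut therefore dropped the edge peak of young replicate 7, scored 2910.28, and kept that of old replicate 8, scored 2760.58. It also dropped the edge peak of old replicate 7, scored 2014.76, and the 671 bp peak of young replicate 8, scored 666.21. As given above, the widths of the main region overlapped between ages.

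H3K27me3 at Cdkn1a was called in a pair of young libraries. Young replicates 1, 2 and 3 had 0, 1800 and 800 bp and all 3 old libraries had 0 bp. Both islands lay on the main H3K4me3 region, covering 59.3% of it in young replicate 2 and 26.4% in young replicate 3. The nearest island of the old libraries was 90.7 to 91.3 kb away, and that of young replicate 1 was 624 kb away. The mean difference, -867 bp, had an exact two-sided permutation p of 0.4 (n = 3 each). Without young replicate 1 it was -1300 bp, where the exact two-sided permutation test gave 0.1 (its lowest possible p with 2 against 3), and without young replicate 2 it was -400 bp. Within title numbers 18 and 20 it was -1800 and -800 bp. The merged region was held by young libraries alone and so met the minimum of 2 libraries through that age, which fixes the direction of a fitted change, and none is given. Islands in young replicates 2 and 3 and in no old library occurred at 1.07% of the H3K4me3 regions held by all 4 libraries. This pattern was picked after its values were seen, so its share is a description only. Most regions could not show it: 81.3% were touched in none of the 5 libraries other than young replicate 1, and 9.81% in all 5. The islands scored 33 and 34, at the 30.7th and 19.6th percentile of their lists, and no H3K27me3 was left in the window when islands below the median score were dropped.

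H3K36me3, the mark of transcribed gene bodies, was called at Cdkn1a in a region at chr17:29234659-29237634, starting 1.517 kb beyond the main H3K4me3 region. Young replicates 4, 5 and 6 had 0, 734 and 1983 bp, and old replicates 4, 5 and 6 had 0, 2453 and 2399 bp. The ages overlapped, and the difference of 712 bp had an exact two-sided permutation p of 0.6 (n = 3 each). Both libraries at 0 carry title number 16, and young replicate 4 is the shortest H3K36me3 list; what part this plays was not tested. Without young replicate 4 the difference was 259 bp, and the log2 change over the region turned from 0.59 to -0.36. The median log2 change over all 45189 H3K36me3 regions tested was 0.81, above that of the Cdkn1a region.

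**Figure D3:**
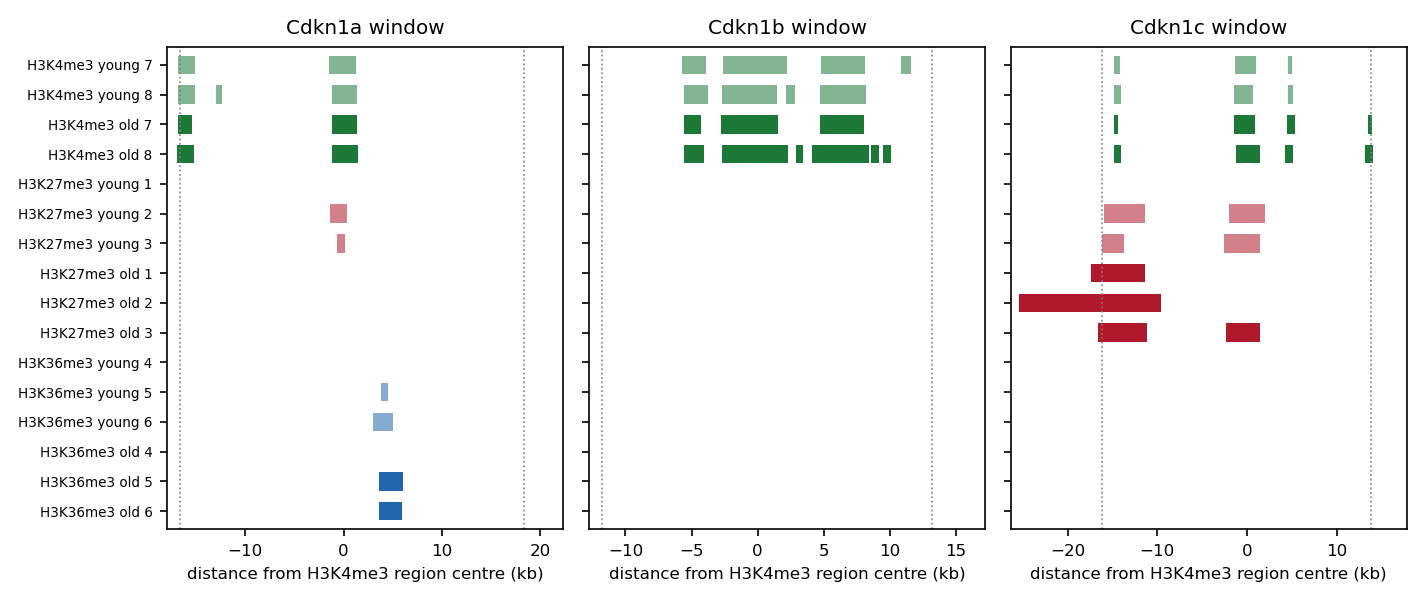
Deposited peaks and islands of the 16 lists (rows, 4-month libraries in lighter colour) in the Cdkn1a, Cdkn1b and Cdkn1c windows, by distance in kb from the centre of the longest H3K4me3 region held by all 4 libraries, with dotted lines at the windows' bounds. H3K27me3 lies on the main Cdkn1a region in young replicates 2 and 3, is absent from the Cdkn1b window in all 6 libraries, and lies on the main Cdkn1c region in young replicates 2 and 3 and old replicate 3.

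Cdkn1b lies between Gpr19 and Apold1 in RefSeq's annotation. Its promoter (chr6:134920151-134920450, GRCm38.p6, plus strand, CG in capitals) is shown because the window carried the longest H3K4me3 of the 4 and no H3K27me3:
Cdkn1b: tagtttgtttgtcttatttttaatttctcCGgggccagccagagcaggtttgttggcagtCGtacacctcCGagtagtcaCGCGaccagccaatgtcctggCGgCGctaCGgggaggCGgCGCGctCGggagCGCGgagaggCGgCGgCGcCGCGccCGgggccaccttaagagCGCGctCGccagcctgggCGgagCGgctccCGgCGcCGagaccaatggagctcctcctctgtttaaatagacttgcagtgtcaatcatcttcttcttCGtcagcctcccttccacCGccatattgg
It holds 30 CGs, a number reached by 11.7% of promoters.

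H3K4me3 covered 10661 and 10115 bp of the Cdkn1b window in young replicates 7 and 8 and 8924 and 12581 bp in old replicates 7 and 8. The lowest and the highest value were both from old libraries, so the ages overlapped, and the difference of 364.5 bp had an exact two-sided permutation p of 1. Without old replicate 8 the difference was -1464 bp. Most of this length came from 3 regions held by all 4 libraries. The longest, at chr6:134868980-134874577, was 4803 and 4816 bp in young and 4292 and 4997 bp in old libraries. Its merged length of 5598 bp exceeded that of 98.7% of the 14489 shared H3K4me3 regions, whose median was 2023 bp.

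The next Cdkn1b region, at chr6:134875910-134880210, was 3301 and 3494 bp in young and 3331 and 4301 bp in old libraries, and its merged length stood at the 95.9th percentile. Both regions scored 3100 in all 4 libraries. The third, at chr6:134866088-134867988, was 1791 and 1805 bp in young and 1301 and 1513 bp in old libraries, with both old values lower. Its log2 change was -0.32 (SE 0.14, limma adjusted p = 0.829), and when peaks were joined across gaps of up to 1000 bp all 7 regions of the window became 1, with a log2 change of 0.03. A further 4 regions of 582 to 766 bp were each held by a single library, of which 3 were in old replicate 8 and 1 in young replicate 7.

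No H3K27me3 island and no H3K36me3 peak touched the Cdkn1b window. The nearest H3K27me3 island lay 107 to 122 kb from its 3 shared H3K4me3 regions in 5 libraries and 715 to 728 kb away in young replicate 1. The limit of detection is unknown, since the lists hold no read depth.

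Cdkn1c is an imprinted gene, expressed from the maternal copy, and lies between Kcnq1 and Slc22a18 in RefSeq's annotation. Its main H3K4me3 region, at chr7:150644736-150647596, was 2403 and 2028 bp wide in young replicates 7 and 8 and 2290 and 2643 bp in old replicates 7 and 8. The widths overlapped between ages (log2 change 0.14, SE 0.13, limma adjusted p = 0.979). Its score was 3100 in both young libraries and 1760.04 and 1836.91 in the old ones. This is the opposite order to that of the second Cdkn2a and Cdkn2b region. Scores at 3100 or above in both young and below 3100 in both old libraries occurred in 1.3% of the 14489 shared regions. The 60.4% at 3100 or above in all 4 libraries could not show this order. It was likewise picked after its values were seen.

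H3K27me3 on this main Cdkn1c region varied between libraries of both ages. It lay wholly under islands in young replicates 2 and 3 and in old replicate 3. It had no island in old replicates 1 and 2, whose nearest ones were 9.935 and 8.135 kb away, nor in young replicate 1, at 210 kb. The covering islands were 4.0 kb in each young library and 3.8 kb in the old one. The log2 change over this H3K27me3 region was -1.49 (SE 1.92, limma adjusted p = 0.836), beside a median of 0.48 over all 30998 H3K27me3 regions tested. It depended on single libraries. It was -2.95 without young replicate 1 and -2.93 without old replicate 3, -0.76 without young replicate 2 or young replicate 3, and -0.77 without old replicate 1 or old replicate 2, and no adjusted p was under 0.05.

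A longer H3K27me3 region at chr7:150620201-150636600, which crosses the lower bound of the window, was held by the same 2 young libraries and all 3 old ones. Islands covered 10.8 and 7.8 kb of it in young replicates 2 and 3 and 13.6, 15.8 and 8.8 kb in old replicates 1 to 3, with none in young replicate 1. Old replicate 3 lay between the young values, so the ages overlapped also without young replicate 1. The log2 change was 2.27 with all libraries (SE 1.77, limma adjusted p = 0.601) and 0.42 without young replicate 1. Within the window, H3K27me3 covered 0, 8.6 and 6.4 kb in young and 4.8, 6.6 and 8.8 kb in old libraries. The difference was 1.73 kb (exact two-sided permutation p = 0.6) and turned to -766 bp without young replicate 1.

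The other 3 H3K4me3 regions of the Cdkn1c window were narrow. That at chr7:150631286-150632081 was 652 and 786 bp in young and 487 and 774 bp in old libraries, and lay wholly under H3K27me3 in the 5 libraries other than young replicate 1. That at chr7:150650378-150651541 was 522 and 591 bp in young and 902 and 932 bp in old libraries, both old values being higher (log2 change 0.56, SE 0.27, limma adjusted p = 0.901). The region at chr7:150659280-150660212, on the upper bound, was absent from both young libraries and 484 and 933 bp wide in the old ones. It met the minimum of 2 libraries through the old libraries alone, which fixes the direction of a fitted change, and none is given. Regions held by both old and no young library made up 3.83% of all 20660 merged H3K4me3 regions.

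Summed over the Cdkn1c window, H3K4me3 covered 3577 and 3405 bp in young and 4051 and 5070 bp in old libraries. Both old values were above both young values, by a mean of 1069.5 bp (exact two-sided permutation p = 0.333, the smallest possible), and 17.2% of genome tiles of this length showed the same order. Within title number 18 the difference was 474 bp, and without old replicate 8 it was 560 bp. With only peaks at or above the median score of their list the difference was -2215.5 bp, since the main region then remained in young lists alone. The median H3K4me3 length under H3K27me3 was 2814 bp in young pairs (range 0 to 3055) and 774 bp in old pairs (range 487 to 3417). Leaving out young H3K27me3 replicate 1 gave 2934.5 bp in young pairs.

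**Figure D4:**
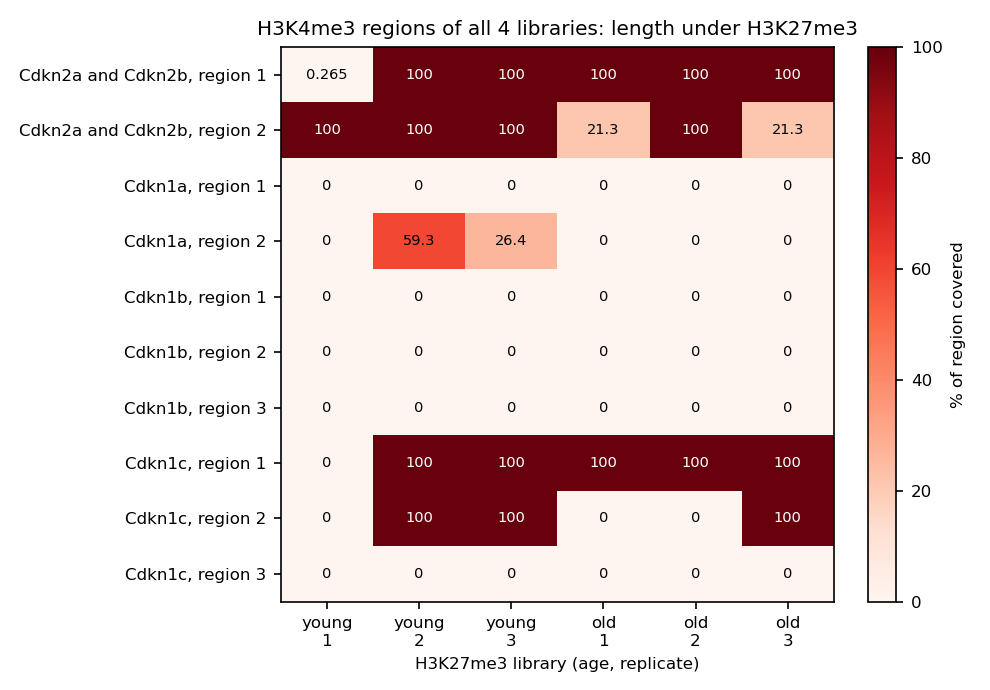
Percentage of each H3K4me3 region held by all 4 libraries (rows, numbered by rising coordinate within a window) that lay under islands of each H3K27me3 library (columns, by age and replicate), from 0 (white) to 100 (dark red). The Cdkn2a and Cdkn2b regions are covered at both ages, the Cdkn1b regions in no library, and the second Cdkn1a and Cdkn1c regions in some libraries.

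Across the 4 windows, 10 H3K4me3 regions were held by all 4 libraries, and they differed between genes in H3K27me3. Leaving out young replicate 1, islands of all 5 H3K27me3 libraries touched 3 of the 10, both at Cdkn2a and Cdkn2b and the lowest-coordinate one at Cdkn1c, where 9.81% of the 14489 shared regions genome-wide were touched in all 5. Islands of none of the 5 touched 5 of the 10, namely all 3 at Cdkn1b, the edge region at Cdkn1a and the region at chr7:150650378-150651541 at Cdkn1c, where the genome-wide share was 81.3%. The main regions of Cdkn1a and Cdkn1c were touched in some libraries only. H3K4me3 and H3K36me3 shared no base in any window or pair of libraries of the same age.

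Of the 16 merged H3K4me3 regions in the windows, 11 were held by at least 2 libraries and tested with limma. Both old libraries were above both young ones in covered length in 3 of the 11, of which 1 (at chr7:150659280-150660212) was held by old libraries alone, with a share of 16.5% over the 17307 regions tested, and below in 2 of the 11, with a share of 14.6%. No region was called at an adjusted p under 0.05 in the windows or elsewhere, 0.0% of 17307 H3K4me3, 0.0% of 30998 H3K27me3 and 0.0% of 45189 H3K36me3 regions. Unadjusted p-values under 0.05 numbered 1253, 1368 and 257 in these 3 fits. Genome-wide counts depended on single libraries. Without old replicate 2, 2766 of 29028 tested H3K27me3 regions were called. None of the 5 tested H3K27me3 regions of the windows was among them, which is too few to set the windows apart from that share. Leaving out an H3K4me3 library left 1 library in an age, and the counts of those fits are not given. Among the 5 H3K27me3 regions and the 1 H3K36me3 region of the windows, old and young libraries overlapped in every case. For the H3K27me3 regions on the main Cdkn1a and Cdkn1c regions, the overlap rested on young replicate 1, which had 0 bp in both. Without it, every old value there lay below those of young replicates 2 and 3. Genome-wide shares of these orders are not given for H3K27me3 or H3K36me3, so they are a description only.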

How the data were processed

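The tools named in the submitters' processing notes are CASAVA 1.4, MACS and SICER, and the build is mm9. Thresholds, controls and the other tools' versions: not given in the sources used here. For every library the authors deposited 1 peak list. H3K27me3 lists have SICER's layout (islands on a grid of 200 bp), and H3K4me3 and H3K36me3 lists that of MACS. Each list holds a score per peak, deposited by the authors with no unit, which was used only to rank, filter or describe peaks. More peaks or longer lists can come from depth or enrichment as well as from extent.

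Covered length per window was the union of peaks clipped at its bounds, tested by exact two-sided permutation with Benjamini-Hochberg adjustment over 12 tests. Overlapping (by 1 bp or more) or abutting peaks of a mark were merged. Regions covered in at least 2 libraries were fitted on log2(bp + 200) with limma 3.58.1 (R 4.3.3), old against young, with Benjamini-Hochberg adjustment over all regions of the mark; a fold on this scale understates changes of short regions. The fit was also run on simulated data, where a pass was required only for a large change at a small fixed spread. That spread was below that of the H3K27me3 and H3K36me3 regions of the windows. That part of the simulation therefore does not show how often the fit would find a change in these data. A further part used each region's own spread within the ages, and its counts are not given here. Only the 5 members were to be named with values. Members, windows and lists were chosen with earlier results of these data known. Lists of other cell-cycle genes and of cell type markers needed an mm9 annotation and were not analysed here. Promoter sequences are from RefSeq (GRCm38.p6), in which 4 of the 5 members matched with 6 starts. Alternatives covered score thresholds, equal list lengths, scaling, whole peaks, merging gaps, pseudocounts, filters, blocks and leaving out each library.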

Additional observations from a re-analysis of the deposited data

How the results depend on the processing

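Of 108 recomputed differences in covered length in the windows, 93 kept their direction. Of these, 16 were in windows with no peak of the mark, where every value is 0. The 93 also include the replicate block, which leaves the mean difference unchanged by construction. H3K27me3 at Cdkn1a could not turn positive either, since every old value is 0. The 93 are therefore no measure of robustness. Sizes could still move, as for H3K4me3 with peaks at or above the median score (1472 bp at Cdkn2a and Cdkn2b and -42.5 bp at Cdkn1a). That cut was lower in old H3K4me3 replicate 8 than in the other H3K4me3 lists. With scaling to equal list length, H3K4me3 at Cdkn2a and Cdkn2b became -21.9 bp and at Cdkn1b -299 bp; with equal numbers of peaks, Cdkn1b became -761.5 bp and H3K36me3 at Cdkn1a 0 bp. With peaks at or above the median score, H3K4me3 at Cdkn1c was -2215.5 bp, H3K27me3 at Cdkn1a 0 bp, H3K36me3 at Cdkn1a -106 bp and H3K4me3 under H3K27me3 at Cdkn2a and Cdkn2b 507 bp. Within title number 18, H3K4me3 was -174 bp at Cdkn2a and Cdkn2b and -1737 bp at Cdkn1b, and H3K27me3 at Cdkn1c was -1999 bp. H3K27me3 at Cdkn2a and Cdkn2b was -600 bp within number 20, and H3K36me3 at Cdkn1a 0 bp within number 16. Leaving out each library gave -65.5 to 345.5 bp (H3K4me3, Cdkn2a and Cdkn2b), -1464 to 2193 bp (H3K4me3, Cdkn1b) and -766 to 3534 bp (H3K27me3, Cdkn1c). The overlap of H3K4me3 with H3K27me3, for which leaving out libraries was chosen after seeing the data, ranged from -955 to -28 bp (Cdkn2a and Cdkn2b), -1159 to -400 bp (Cdkn1a) and -2327 to -633 bp (Cdkn1c).

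In the limma fits, leaving out a library gave 16 to 94 called H3K4me3 regions and 0 to 2766 called H3K27me3 regions (2766 without old replicate 2), with no window region called in any setting. Where an age was left with 1 library, it was assumed to vary like the other age. Subtracting each library's median moved the median log2 change from 0.48 to -0.68 for H3K27me3 and from 0.81 to -0.29 for H3K36me3. It turned the Cdkn2a and Cdkn2b domain to -0.86, the H3K36me3 region at Cdkn1a to -0.51 and the second Cdkn2a and Cdkn2b H3K4me3 region to 0.0068. The score threshold gave 2.92 for that region, -3.59 for the main Cdkn1c H3K4me3 region and -0.66 for the H3K36me3 region. Both H3K4me3 regions were then left in libraries of 1 age only and met the minimum of 2 libraries through that age. The direction of their fitted change was thereby fixed, so 2.92 and -3.59 restate the order of scores and show no change in length. With all peaks these regions gave -0.01 and 0.14. Joining gaps merged all Cdkn1b H3K4me3 regions into 1, with a change of 0.029. Leaving out libraries moved log2 changes across 0 for the H3K36me3 region (-0.36 to 1.82), the main Cdkn1a region (-0.074 to 0.11), the second Cdkn2a and Cdkn2b region (-0.14 to 0.12), the Cdkn1b regions at 134868980 (-0.16 to 0.053) and 134875910 (-0.026 to 0.32) and the Cdkn1c region at 150631286 (-0.42 to 0.088). The causes were not tested. Young and old libraries with the same replicate number share that number. Some also share the title number, namely H3K27me3 replicates 2 and 3, H3K36me3 replicate 4 and H3K4me3 replicate 7. Deviations of same-numbered libraries correlated at 0.0998, 0.143 and 0.0208 (H3K27me3), 0.0598, -0.0311 and 0.0326 (H3K36me3) and 0.00456 (H3K4me3). Differently numbered pairs gave -0.147 to 0.0490 (H3K27me3), -0.0625 to 0.0428 (H3K36me3) and -0.00456 (H3K4me3). Deviations were taken from the mean of each age, so they cancel out within an age. The H3K4me3 values can therefore differ in sign only, and those of the other marks are also tied to each other. With the replicate block limma called 0 regions for each mark, as without it. Title number as a block also gave 0 for H3K27me3 and H3K36me3 and could not be fitted for H3K4me3.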
